A study of Homo sapiens with 12 samples.

Results

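The genes described here are 47 genes of DNA replication and S phase. They cover origin licensing, helicase activation, the replicative polymerases, the sliding clamp and its loader, lagging-strand processing, nucleotide supply, E2F and cyclin E regulators, and chromatin assembly. They were chosen by gene symbol from a list of known replication genes, and all 47 were found among the 62082 genes of the deposited tables. All 47 passed the filter on low values in each comparison. RNA sequencing was done on 12 libraries of MCF10A, a human breast epithelial cell line that does not form tumours, with 3 libraries in each of 4 groups. The p53 wild-type groups had intact p53 and carried either the pBabepuro vector alone or H-RasV12, an activated form of the small GTPase H-Ras, stably expressed from a retrovirus. In the p53-deleted groups, exon 2 of p53 was the site of a targeted deletion, and the constructs were the same. Every group grew in serum-containing medium, and the vector line of each pair was made together with its H-Ras line, so p53 status and the pair of lines cannot be told apart. Separate cultures are not stated for the replicates, so a p-value here reflects the spread over these libraries, which could be technical.

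Replication of the genome is prepared in G1, when the origin recognition complex, CDC6 and CDT1 load the ring of MCM proteins onto DNA. In S phase, CDC45 and the GINS complex join that ring to form the active helicase, and DNA polymerases copy the template behind it with the PCNA clamp. Many of these genes are transcribed only in cycling cells, as targets of the E2F transcription factors, which are held in check by the retinoblastoma family in resting cells. Activated Ras can drive primary cells into a permanent arrest in which E2F targets are silenced, and p53 and its target CDKN1A, an inhibitor of cyclin-dependent kinases, are known contributors to that arrest.

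Promoters are shown for 6 of the genes, because they hold E2F binding words, which were more frequent in windows of these genes than in the table as a whole. Windows from 250 bases before to 50 bases after the start were in RefSeq's table (build GRCh38.p14) for 42 of the 47 genes. The words searched on both strands were TTTCCCGC, TTTCGCGC, TTTGGCGC and TTTGCCGC, none of which contains the other motifs searched below. At least 1 of them was present in 20 of 42 windows (47.6%), against 3.31% of all 35116 windows in the table and 5.41% of the 9398 windows of genes tested here. Each stretch below has 90 bases, all upstream of the start, 5′ to 3′ on the gene's strand, with the E2F words in capitals. They lie at chr16:88803699-88803788 (CDT1, plus strand), chr16:85688955-85689044 (GINS2, minus strand), chrX:24693744-24693833 (POLA1, plus strand), chr12:132687343-132687432 (POLE, minus strand), chr20:5126629-5126718 (PCNA, minus strand) and chr20:33686386-33686475 (E2F1, minus strand).
CDT1: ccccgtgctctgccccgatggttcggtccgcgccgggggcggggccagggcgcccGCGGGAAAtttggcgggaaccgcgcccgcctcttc
GINS2: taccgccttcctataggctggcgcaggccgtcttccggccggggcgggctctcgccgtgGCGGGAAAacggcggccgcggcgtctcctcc
POLA1: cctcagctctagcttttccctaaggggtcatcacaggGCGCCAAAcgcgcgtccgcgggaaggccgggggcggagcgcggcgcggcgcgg
POLE: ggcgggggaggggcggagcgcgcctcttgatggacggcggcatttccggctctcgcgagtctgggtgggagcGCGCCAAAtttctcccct
PCNA: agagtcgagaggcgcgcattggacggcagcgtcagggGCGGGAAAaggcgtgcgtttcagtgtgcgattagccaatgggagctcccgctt
E2F1: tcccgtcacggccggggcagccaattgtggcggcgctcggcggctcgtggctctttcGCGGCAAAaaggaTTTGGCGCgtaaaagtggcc

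In each gene the word closest to the start began 18 to 137 bases upstream of it, and E2F1 held 2 words. The CCAAT box (CCAAT, both strands), a common promoter element, was in 52.4% of the 42 windows, in 34.6% of all windows and in 36.7% of those of genes tested. The CHR element (TTTGAA, both strands), known from genes of late S phase and mitosis, was in 4.76% (2 of 42 windows), 15.2% and 9.62%. A match describes the letters only, and a window without one says nothing about binding of the factor.

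Depth was estimated at 7846960 to 10084900 reads per library. The deposited tables hold group means, from which the 3 libraries of each group were solved. Letters A to C name them within a group, from the largest size factor to the smallest, and no replicate number could be attached. Levels are normalized counts on a scale shared by the 12 libraries, errors are SD over n = 3, and log2 fold changes are on the log2(value + 1) scale with their SE. All adjusted p-values are Benjamini-Hochberg values of limma over the genes tested, and a call means an adjusted p under 0.05. HRAS counted 754, 992 and 961 in the p53 wild-type vector libraries and 19598, 18705 and 15572 in the H-Ras libraries, and 797, 745 and 825 against 15618, 17378 and 17675 in the p53-deleted lines, so it was high in every library labelled H-Ras. The epithelial marker CDH1 counted 1923 to 2571 in p53 wild-type vector libraries and 4.07 to 12.2 in H-Ras libraries, and 2788 to 3054 against 34.3 to 40.5 in the p53-deleted lines, so this defining marker was near 0 in both H-Ras lines. Of 8 epithelial markers, 7 were called lower under H-Ras in the p53 wild-type lines, where the sum of all 8 went from 63926 to 66823 down to 19469 to 23978, and 6 of the 7 tested were called lower in p53-deleted cells. TP63 was near 0 in both H-Ras lines as well, at 0 to 3.19, and EGFR fell to 2860 to 3021 and 2440 to 2616 (-1.01 ± 0.10 and -1.57 ± 0.10, adjusted p = 0.00045 and adjusted p = 2.8e-07). LAMB3 did not fall in the p53 wild-type lines, averaging 7776 and 10169 (0.36 ± 0.14, adjusted p = 0.11). ITGB4 was not called in p53-deleted cells, averaging 10293 and 8129 (-0.33 ± 0.14, adjusted p = 0.071). Of all genes tested, 12.7% were called lower under H-Ras in p53 wild-type cells and 28.3% in p53-deleted cells. KRT5 could not be solved in the p53-deleted vector libraries, so the list has no full sum there. The summed fibroblast list of 8 genes went from 227 to 334 in p53 wild-type vector libraries to 3082 to 4963 with H-Ras, and from 425 to 774 to 11414 to 16953 in the p53-deleted lines. At 0 in all libraries were COL1A2 and COL3A1 (fibroblast), PECAM1 (endothelial), and PTPRC and CD3E (leukocyte). Other fibroblast genes were called higher under H-Ras in both backgrounds. COL6A3 averaged 10.9 and 928 in p53 wild-type vector and H-Ras lines, and 444 and 12823 in the p53-deleted lines. DCN averaged 164 and 3170, and 10.5 and 481, in the same order, while COL1A1 was called lower in both backgrounds. The summed endothelial list of 6 genes went from 175 to 212 to 691 to 889 and from 74.4 to 104 to 528 to 587, and the leukocyte list of 6 genes from 336 to 984 to 557 to 1471 and from 131 to 152 to 720 to 869. In these lists ROBO4, KDR and LAPTM5 were called higher under H-Ras in both backgrounds, and CSF1R was called lower in both. The part of these shifts in the replication results was not tested.

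Libraries of the p53 wild-type lines did not agree among themselves on the replication genes. The 47 genes together took 0.314%, 0.491% and 0.516% of the reads in vector A, B and C, and 0.139%, 0.127% and 0.415% in H-Ras A, B and C. Vector A was therefore the lowest vector library, and H-Ras C stood close to the vector libraries while H-Ras A and B did not. The p53-deleted libraries took even shares, 0.444%, 0.438% and 0.484% under vector and 0.103%, 0.115% and 0.117% under H-Ras. H-Ras C lay above H-Ras A and B in 47 of 47 genes, by 1.33 times (POLD2) to 8.25 times (CCNE2), with a median of 3.28. It was within the range of the vector libraries in 32 genes, above it in 8 and below it in 7. Vector A was the lowest vector library in 47 of 47 genes, at 0.351 (CCNE2) to 0.854 (RPA1) of the mean of B and C, with a median of 0.626. Over all genes tested, the median log2 deviation of vector A was 0.03 and that of H-Ras C -0.06, against -0.67 and 1.70 over the 47 genes. Markers of later cell cycle phases moved with them, as MKI67, a proliferation antigen, counted 3382, 6014 and 5937 in vector A, B and C and 2081, 1818 and 5815 in H-Ras A, B and C. For HRAS and CDH1, H-Ras C was at 15572 and 6.38, on the side of H-Ras A and B, but other markers set it apart. The epithelial integrin ITGB4 counted 4006, 3702 and 1898 in H-Ras A, B and C, and the summed fibroblast list 4451, 4963 and 3082. The summed leukocyte list was at 1471, 1419 and 557 in those libraries and at 984, 338 and 336 in vector A, B and C, so both libraries apart differed from the rest of their groups on it. What set these libraries apart was not tested. In bulk RNA, fewer cycling cells and less transcript per cell cannot be told apart.

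**Figure D1:**
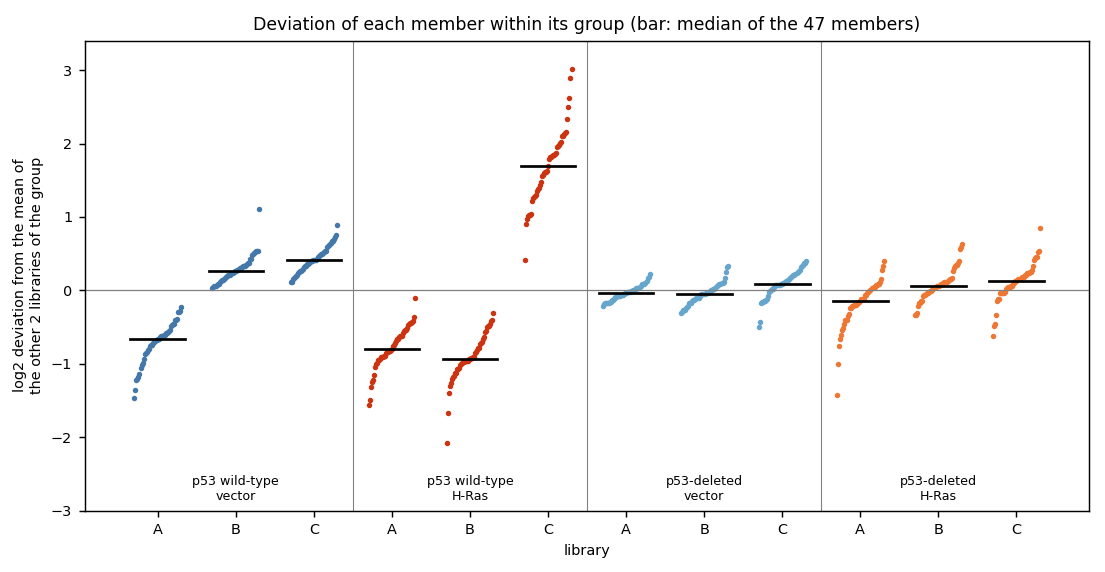
Log2 deviation of each of the 47 genes from the mean of the other 2 libraries of its group (vertical axis) in the 12 libraries (horizontal axis), with a bar at the median. Vector A sits below 0 and H-Ras C above 0 for all 47 genes in the p53 wild-type lines, with medians of -0.67 and 1.70, while the medians of the p53-deleted libraries lie between -0.15 and 0.13.

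The H-Ras comparisons asked what stable H-RasV12 did to these genes in each p53 background. In p53-deleted cells 46 of 47 genes fell with H-Ras and 0 rose, where 28.3% of all 12779 genes tested were called lower. The median log2 fold change was -2.24, against 0.01 over all genes, and 32 genes were at -2 or lower. MCM10, E2F2, GINS1, GINS2 and CDC6 fell most, and POLD2 was the gene that did not pass. Every H-Ras library was below every vector library in 46 genes, as it was for 31.0% of all genes tested. In p53 wild-type cells 6 of 47 genes fell with H-Ras (E2F2, CDT1, MCM2, MCM5, POLE and RPA1) and 0 rose, where 12.7% of 12467 genes tested were called lower, so this count was near the background. All 47 fold changes were below 0 with a median of -1.19, against -0.02 over all genes. The groups did not overlap for 7 genes, the 6 named and ORC1, the origin recognition subunit that is itself cycle-regulated, and the share of all genes with every H-Ras library below every vector library was 20.5%.

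The p53 wild-type count turned on single libraries. Leaving out H-Ras C gave 45 genes called lower, and leaving out H-Ras A, vector B or vector C gave 0, H-Ras B 1 and vector A 7. A fit of all 12 libraries, in which the p53-deleted lines share in the estimate of the spread, called 31 genes lower. The share of all genes called is not given for these fits. Their counts therefore cannot be told apart from a general change in calls. With vector A and H-Ras C both left out, 47 of 47 genes were called lower with a median log2 fold change of -1.99, where 29.4% of 11768 genes tested were called lower. The highest adjusted p among the 47 was then 0.0011 for DBF4, whose adjusted p ranged from 0.0011 to 0.97 over all alternatives. Both libraries were picked out with levels of cell cycle genes known, so the counts without them, here and below, are a description and not independent of these genes. Vector A was the lowest vector library and H-Ras C the highest H-Ras library in 47 of 47 genes. Leaving out both therefore had to lower each of the 47 fold changes. The authors' deposited table, with its own test, calls 6 of the 47 genes lower and 0 higher in p53 wild-type cells (CDT1, MCM2, MCM5, POLE, E2F2 and ORC1), where 4.62% of its genes with a p-value are called lower. In p53-deleted cells the authors' deposited table calls 46 lower and 0 higher, where 13.2% are called lower, and again POLD2 is the exception.

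**Figure D2:**
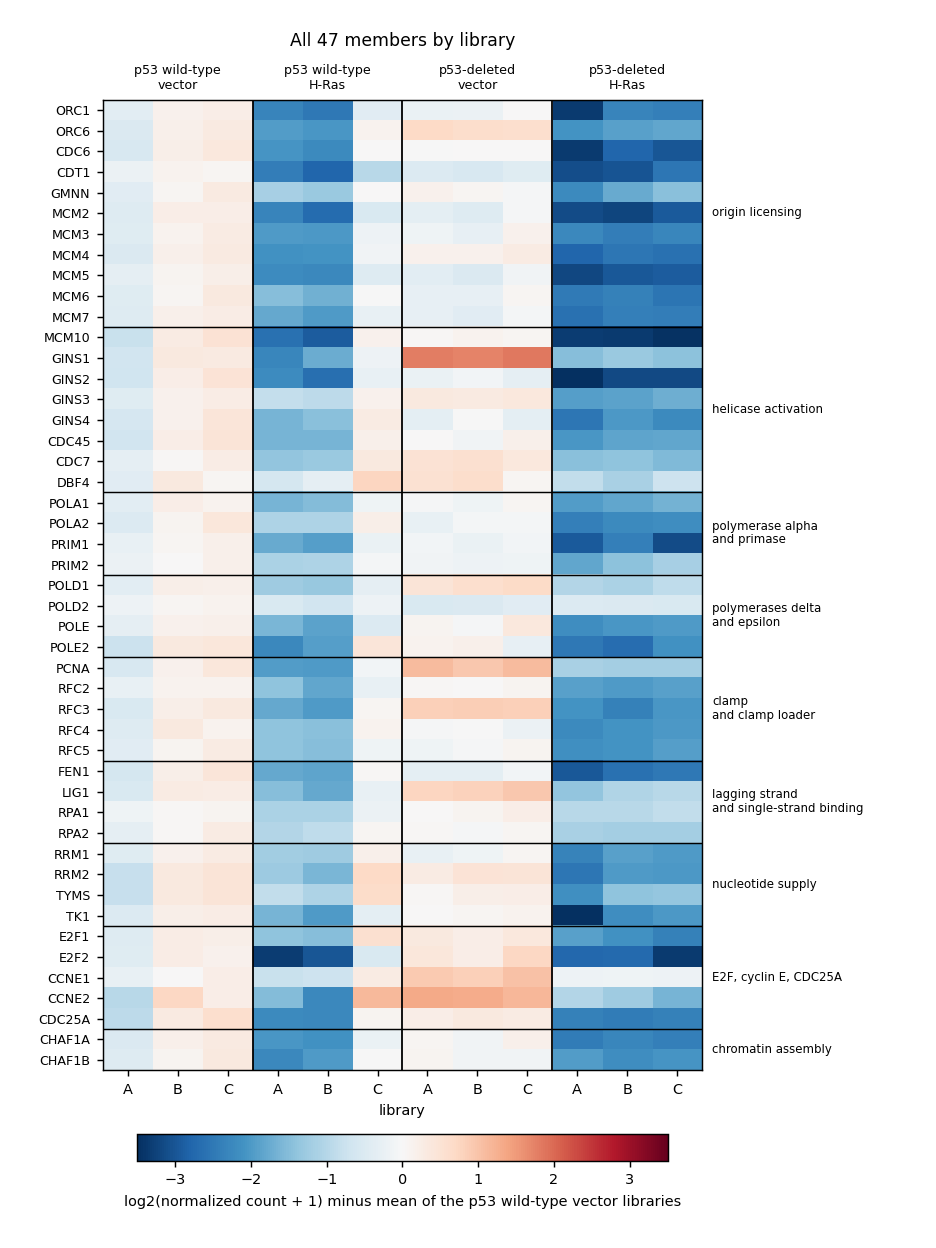
Log2(normalized count + 1) of the 47 genes minus the mean of the p53 wild-type vector libraries (colour, blue lower and red higher), by library and grouped by role. H-Ras A and B of the p53 wild-type line and the 3 p53-deleted H-Ras libraries are blue in nearly every gene, H-Ras C is near the colour of the vector libraries, and POLD2 is pale throughout.

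**Figure D3:**
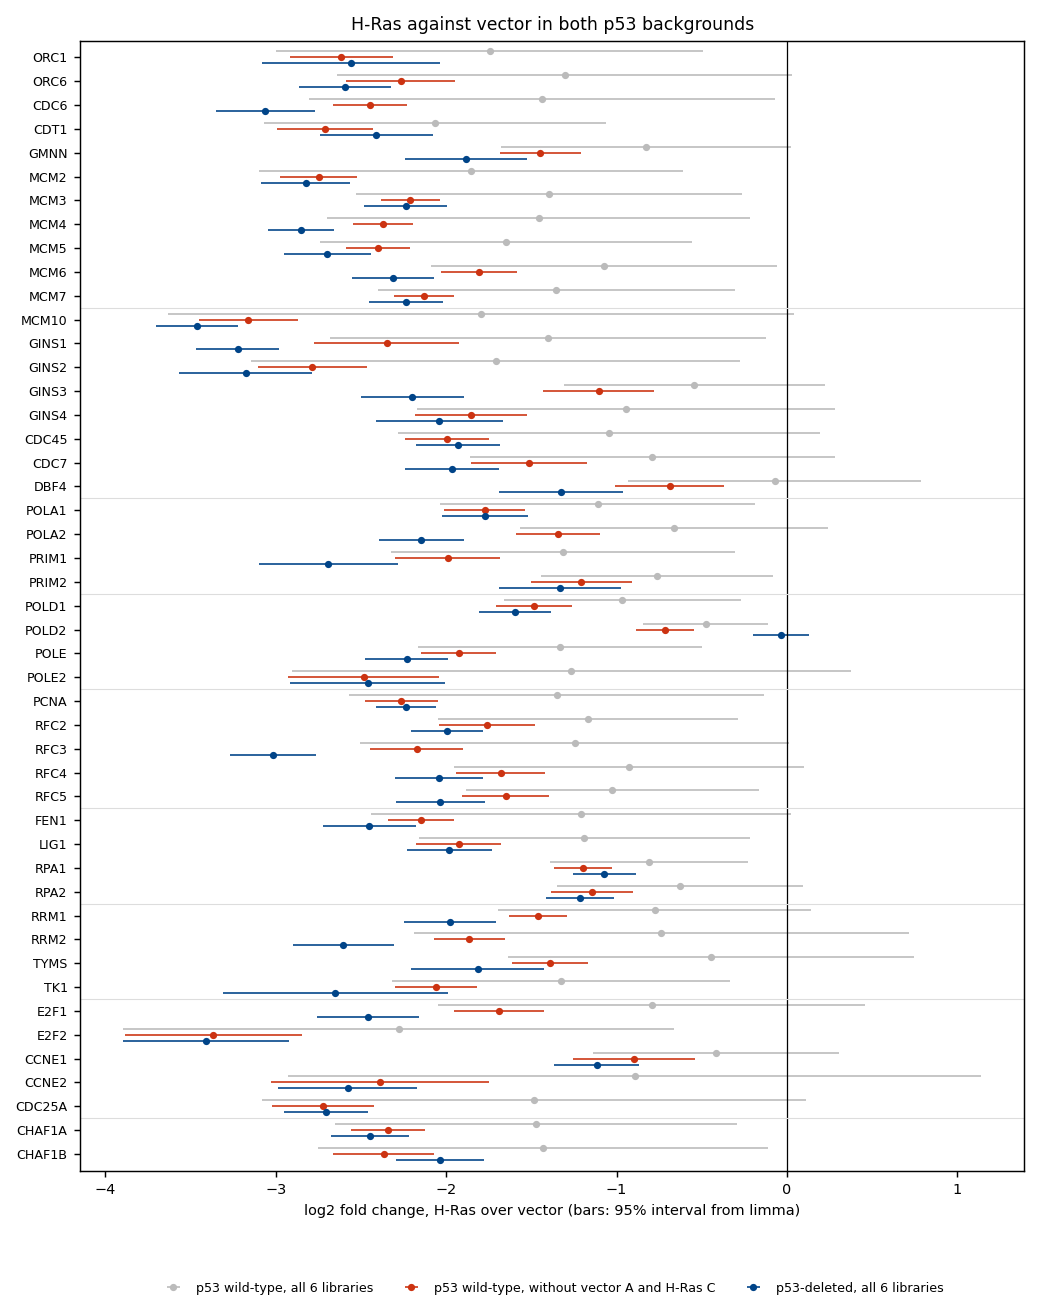
Log2 fold change of H-Ras over vector for each gene (horizontal axis) with its 95% interval from limma, in p53 wild-type cells with all 6 libraries (grey) and with vector A and H-Ras C left out (red), and in p53-deleted cells (blue). The grey intervals are widest, all 47 red points lie below 0, and POLD2 in p53-deleted cells is the blue point at 0.

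Origin licensing genes (11 genes) fell throughout in p53-deleted cells, with 11 of 11 called and a median log2 fold change of -2.56. In p53 wild-type cells 3 of 11 were called with all 6 libraries. MCM7 (ENSG00000166508), a subunit of the MCM ring, counted 2947, 4599 and 4882 in p53 wild-type vector libraries A, B and C and 1174, 1025 and 3384 in the H-Ras libraries. H-Ras A and B lay below all vector libraries and H-Ras C between vector A and B. The log2 fold change was -1.35 ± 0.45 (adjusted p = 0.065) with all 6 libraries and -2.13 ± 0.08 with vector A and H-Ras C left out. MCM7 in p53-deleted cells went from 3333, 3048 and 3846 to 664, 766 and 759, a log2 fold change of -2.24 ± 0.10 (adjusted p = 1.5e-08), with the groups far apart. MCM3 (ENSG00000112118), another ring subunit, counted 1855, 2704 and 2986 and 626, 617 and 2185 in the p53 wild-type lines, and the groups overlapped through H-Ras C. Its fold changes there were -1.40 ± 0.48 (adjusted p = 0.074) and, without the same libraries, -2.21 ± 0.08. MCM3 in p53-deleted cells fell from 2231, 2007 and 2739.6 to 513, 462 and 509 (-2.24 ± 0.11, adjusted p = 3.3e-08). MCM2 (ENSG00000073111) and MCM5 (ENSG00000100297), both ring subunits, were called in p53 wild-type cells. MCM2 counted 1441, 2318 and 2296 against 394, 306 and 1371, so that even H-Ras C was below vector A, and its log2 fold change was -1.85 ± 0.53 (adjusted p = 0.041). MCM5 counted 1243, 1638 and 1781 against 335, 319 and 1127, again without overlap (-1.65 ± 0.47, adjusted p = 0.039). Adjusted p over the alternatives ran from 1.4e-11 to 0.14 for MCM2 and from 7.9e-12 to 0.13 for MCM5. Both ring subunits fell in the p53-deleted lines too, MCM2 from 1551, 1429.9 and 1924 to 224, 212 and 258 (-2.83) and MCM5 from 1189.9, 1075 and 1408 to 169, 197 and 203 (-2.70).

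CDT1 (ENSG00000167513), the loader of the MCM ring that is destroyed once S phase starts, had the lowest adjusted p of the 47 genes in p53 wild-type cells. It counted 511, 638 and 618 under vector and 108, 85.4 and 298 under H-Ras, with every H-Ras library below every vector library and H-Ras C the highest of the H-Ras libraries. The log2 fold change was -2.07 ± 0.43 (adjusted p = 0.012), and adjusted p rose to 0.056, 0.052 and 0.051 without vector B, vector C or H-Ras A. CDT1 in p53-deleted cells fell from 420.2, 399.9 and 438 to 67.9, 71.4 and 101 (-2.41 ± 0.15, adjusted p = 1.8e-07). CDC6 (ENSG00000094804), the ATPase that works with CDT1, counted 657, 1129 and 1249 and 234, 206 and 983 in the p53 wild-type lines, where H-Ras C lay among the vector libraries. The fold change there was -1.44 ± 0.58 (adjusted p = 0.11), and -2.45 ± 0.10 with vector A and H-Ras C left out. CDC6 in p53-deleted cells fell from 974, 985 and 991 to 95.3, 143 and 122 (-3.06 ± 0.13, adjusted p = 1.2e-08), a clear gap between groups. The other licensing genes were ORC1 and ORC6 of the origin recognition complex, MCM4, MCM6 and GMNN, which encodes the CDT1 inhibitor geminin. Their log2 fold changes in p53-deleted cells ran from -2.85 (MCM4) to -1.88 (GMNN), and all passed the test.

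Helicase activation genes (8 genes) were all called lower in p53-deleted cells, with a median log2 fold change of -2.12, and 0 of 8 were called in p53 wild-type cells with all 6 libraries, against 8 of 8 without vector A and H-Ras C. MCM10 (ENSG00000065328), which helps to activate the helicase, had the lowest fold change of the 47 genes in p53-deleted cells. There it counted 558, 598 and 573 under vector and 53.8, 53.1 and 49.00 under H-Ras (-3.46 ± 0.11, adjusted p = 1.1e-09), with little spread within either group. MCM10 in p53 wild-type cells counted 315, 665 and 774 and 89.2, 72.2 and 602, so H-Ras C was 7.46 times the mean of H-Ras A and B. The fold change was -1.80 ± 0.78 (adjusted p = 0.14), and -3.16 ± 0.14 without the libraries apart. CDC45 (ENSG00000093009), which rides on the ring as part of the active helicase, counted 305, 571 and 668 and 156, 157 and 555 in the p53 wild-type lines, with overlap through H-Ras C (-1.04 ± 0.53, adjusted p = 0.19). CDC45 in p53-deleted cells fell from 491, 449 and 549 to 119, 135 and 138 (-1.93 ± 0.11, adjusted p = 1.1e-07).

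The 4 GINS genes encode the complex that joins CDC45 on the ring, and all of them fell in p53-deleted cells. GINS1 (ENSG00000101003) counted 563, 540.2 and 581 in p53-deleted vector libraries but 101, 205 and 199 in p53 wild-type vector libraries. Under H-Ras the lines were at like levels, 56.5, 64.7 and 58.8 and 32.4, 47.8 and 142. Its H-Ras fold change was -3.22 ± 0.11 (adjusted p = 2.0e-09) in p53-deleted cells, from the higher starting level, and -1.40 ± 0.55 (adjusted p = 0.102) in p53 wild-type cells. GINS2 (ENSG00000131153) counted 304, 579.9 and 693 and 107, 79.3 and 412 in p53 wild-type lines and 422, 463 and 402 and 34.4, 55.00 and 54.9 in p53-deleted lines. Only the p53-deleted groups were separate, and the fold change was -1.71 ± 0.61 (adjusted p = 0.081) in p53 wild-type cells and -3.18 ± 0.18 (adjusted p = 7.8e-08) in p53-deleted cells. GINS3 (ENSG00000181938) counted 117, 177 and 189.9 and 88.2, 83.4 and 175 in p53 wild-type lines, where its groups overlapped (-0.54 ± 0.33, adjusted p = 0.26), and fell from 201, 198 and 205 to 40.6, 42.5 and 48.02 in p53-deleted lines (-2.20 ± 0.14, adjusted p = 1.8e-07). GINS4, the remaining subunit, and CDC7 and DBF4, which form the kinase that fires origins, fell by 2.04, 1.97 and 1.33 on the log2 scale in p53-deleted cells. DBF4 had the weakest fold change of the 47 in p53 wild-type cells, -0.07 ± 0.37 (adjusted p = 0.903).

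All 4 genes of polymerase alpha and primase, the enzymes that start each new strand, fell in p53-deleted cells, with a median log2 fold change of -1.96. POLA1 (ENSG00000101868), the catalytic subunit, counted 394, 594 and 548 and 162, 175 and 457 in p53 wild-type lines, with H-Ras C above vector A, and went from 487, 451 and 533 to 131, 143 and 161 in p53-deleted lines. In log2 terms H-Ras over vector was -1.11 ± 0.40 (adjusted p = 0.079) with p53 and -1.77 ± 0.11 (adjusted p = 2.2e-07) without it, and -1.77 ± 0.11 in p53 wild-type cells without vector A and H-Ras C. POLA2 (ENSG00000014138), the regulatory subunit, was called for a difference in H-Ras response between backgrounds, in 12 of 20 alternatives. That log2 difference was -1.48 ± 0.42 (adjusted p = 0.032), and -0.82 with vector A and H-Ras C left out. POLA2 counted 358, 532 and 655 and 237, 234 and 579 in p53 wild-type lines, and 418, 477 and 473 and 93.5, 106 and 111 in p53-deleted lines, where every H-Ras library was lower than any p53 wild-type H-Ras library. The H-Ras fold change was -0.66 ± 0.39 (adjusted p = 0.25) in p53 wild-type and -2.15 ± 0.11 (adjusted p = 5.1e-08) in p53-deleted cells. PRIM1 (ENSG00000198056), the catalytic primase subunit, counted 220.4, 279 and 300.03 and 77.1, 69.1 and 225, and 245, 224 and 246 and 33.5, 49.2 and 29.4, in the same order of groups. Groups were separate in the p53-deleted lines alone (-2.69 ± 0.19, adjusted p = 4.1e-07), and the p53 wild-type fold change was -1.32 ± 0.43 (adjusted p = 0.062). PRIM2, the other primase subunit, has a near-identical partial copy in the genome, which makes its count uncertain, and its p53-deleted fold change was -1.33.

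Polymerases delta and epsilon, which extend the lagging and the leading strand, held the exception among the 47 genes. POLD2 (ENSG00000106628), an accessory subunit of polymerase delta, counted 1446, 1462 and 1590.1 in p53-deleted vector libraries and 1509.8, 1467 and 1456 in p53-deleted H-Ras libraries. The groups overlapped, the log2 fold change was -0.04 ± 0.08 (adjusted p = 0.71), and its 95% interval of -0.20 to 0.13 leaves out the fold changes of the other 46 genes, the nearest of which was -1.07 for RPA1. POLD2 in p53 wild-type cells counted 1833, 2178 and 2297 and 1448, 1310.5 and 1837, with H-Ras C level with vector A (-0.48 ± 0.16, adjusted p = 0.061), and -0.72 ± 0.08 with vector A and H-Ras C left out. The difference between backgrounds was 0.45 ± 0.17 (adjusted p = 0.094, 95% interval 0.07 to 0.82), with adjusted p of 0.00091 to 0.19 over the alternatives. POLE (ENSG00000177084), the catalytic subunit of polymerase epsilon, counted 843, 1178 and 1189.6 and 347, 286 and 762 in p53 wild-type lines without overlap (-1.33 ± 0.36, adjusted p = 0.032, 5.2e-10 to 0.12 over the alternatives). POLE in p53-deleted cells fell from 1134, 1034 and 1364 to 233, 255 and 267 (-2.23 ± 0.11, adjusted p = 3.3e-08). POLD1, the catalytic subunit of polymerase delta, and POLE2, a subunit of polymerase epsilon, had p53-deleted fold changes of -1.60 and -2.46, both called.

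Genes of the clamp and its loader (5 genes) were all called lower in p53-deleted cells, and 0 of 5 in p53 wild-type cells. PCNA (ENSG00000132646), the sliding clamp and also a known p53 target, counted 774, 1273 and 1519 and 297, 289 and 1073 in p53 wild-type lines, with overlap (-1.35 ± 0.52, adjusted p = 0.099). PCNA in p53-deleted cells began higher, at 2481, 2194 and 2458, and fell to 519, 506 and 499.8 (-2.24 ± 0.08, adjusted p = 2.8e-09). Without vector A and H-Ras C, its lowest vector and highest H-Ras library, the p53 wild-type fold change was -2.26 ± 0.10. RFC2 (ENSG00000049541), a clamp loader subunit, counted 428, 568 and 567 and 195, 146 and 433 in p53 wild-type lines and 530.1, 525 and 555 and 138, 130.3 and 138 in p53-deleted lines. H-Ras C just overlapped vector A, and the fold change was -1.17 ± 0.38 (adjusted p = 0.058) in p53 wild-type cells and -1.995 ± 0.09 (adjusted p = 2.5e-08) in p53-deleted cells. The files list RFC2 under another identifier as well, which is at 0. RFC3, RFC4 and RFC5, the other small loader subunits, had p53-deleted fold changes of -3.02, -2.04 and -2.03.

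Among genes of lagging-strand processing and single-strand binding (4 genes), 4 were called lower in p53-deleted cells and 1 in p53 wild-type cells. FEN1 (ENSG00000168496), the flap nuclease that trims Okazaki fragments, counted 971, 1729 and 2005 and 431, 419 and 1545 in p53 wild-type lines, overlapping through H-Ras C, and fell from 1174, 1182 and 1398 to 191, 243 and 262 in p53-deleted lines. Its fold change was -1.21 ± 0.53 (adjusted p = 0.13) in p53 wild-type cells and -2.45 ± 0.12 (adjusted p = 3.7e-08) in p53-deleted cells. RPA1 (ENSG00000132383), the large subunit of the single-strand binding protein that also serves repair, counted 1328, 1522 and 1587 and 689, 685 and 1286 in p53 wild-type lines, with H-Ras C just under vector A. RPA1 in p53-deleted cells counted 1485, 1567 and 1748 and 747, 753 and 805, so the p53-deleted H-Ras libraries were just above p53 wild-type H-Ras A and B. In log2 terms H-Ras over vector was -0.81 ± 0.25 (adjusted p = 0.0498) with p53 and -1.07 ± 0.09 (adjusted p = 1.2e-06) without it, the former with adjusted p of 6.8e-09 to 0.17 over the alternatives. LIG1, the ligase that seals fragments, and RPA2 fell by 1.98 and 1.21 on the log2 scale in p53-deleted cells.

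Nucleotide supply genes (4 genes) were all called lower in p53-deleted cells and 0 of 4 in p53 wild-type cells. RRM2 (ENSG00000171848), the cycle-regulated subunit of ribonucleotide reductase, counted 1110.4, 2501 and 2696 in p53 wild-type vector libraries and 805, 648 and 3177 in H-Ras libraries, so H-Ras C was the highest of the 6. Its fold change was -0.74 ± 0.62 (adjusted p = 0.41) with a 95% interval of -2.19 to 0.72, and -1.86 ± 0.10 with vector A and H-Ras C left out. RRM2 in p53-deleted cells fell from 2394, 2713 and 2699 to 335, 496 and 481 (-2.61 ± 0.13, adjusted p = 4.4e-08). RRM1 (ENSG00000167325), the catalytic subunit, counted 1529, 2249.9 and 2468 and 883, 854 and 2293 in p53 wild-type lines, also with overlap (-0.78 ± 0.39, adjusted p = 0.19), and fell from 1705, 1834 and 2131 to 401, 546 and 514 in p53-deleted lines (-1.98 ± 0.12, adjusted p = 1.7e-07). TK1, thymidine kinase, and TYMS, thymidylate synthase, had p53-deleted fold changes of -2.65 ± 0.30 and -1.82 ± 0.18. TK1 was uneven among p53-deleted H-Ras libraries, at 92.7, 236 and 267. TYMS overlaps the antisense gene ENOSF1, and reads of the pair cannot be told apart because the strand setting of the counting is not stated.

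The regulators E2F1, E2F2, CCNE1, CCNE2 and CDC25A (5 genes) were all called lower in p53-deleted cells, with a median log2 fold change of -2.58. E2F1 (ENSG00000101412), an activating E2F that is its own target, counted 235, 381 and 367 and 119.6, 114 and 471 in p53 wild-type lines, where H-Ras C was above all vector libraries (-0.79 ± 0.53, adjusted p = 0.31). E2F1 in p53-deleted cells fell from 405, 373 and 418 to 84.7, 72.4 and 61.7 (-2.46 ± 0.14, adjusted p = 7.1e-08). E2F2 (ENSG00000007968), a further activating E2F, had the lowest fold change of the 47 genes in p53 wild-type cells. It counted 89.5, 142 and 134 and 11.2, 14.2 and 82.9 without overlap (-2.28 ± 0.69, adjusted p = 0.048, 1.7e-08 to 0.16 over the alternatives), and 157, 141 and 196 and 16.8, 17.4 and 10.8 in p53-deleted lines (-3.41 ± 0.22, adjusted p = 2.4e-07). CDC25A (ENSG00000164045), the phosphatase that activates CDK2, counted 175, 411 and 497 and 68.9, 68.1 and 349.7 in p53 wild-type lines, with vector A between H-Ras A and C. CDC25A in p53-deleted cells was even in both groups, at 388, 417 and 404 and 62.7, 59.8 and 62.7. The H-Ras fold change was -1.48 ± 0.68 (adjusted p = 0.15) in p53 wild-type and -2.70 ± 0.11 (adjusted p = 7.9e-09) in p53-deleted cells. CCNE1 (ENSG00000105173), the cyclin that drives entry into S phase, had the smallest fold changes of these regulators. It counted 105, 129 and 150.01 and 74.01, 76.2 and 154 in p53 wild-type lines, with H-Ras C above the vector libraries, and 241, 228 and 260.3 and 111, 115 and 112 in p53-deleted lines. In log2 terms H-Ras over vector was -0.42 ± 0.31 (adjusted p = 0.36) with p53 and -1.12 ± 0.11 (adjusted p = 8.2e-06) without it. CCNE2, its paralog, had a p53-deleted fold change of -2.58.

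Both subunits of the chromatin assembly factor measured here, which place histones on new DNA, fell in p53-deleted cells. CHAF1A (ENSG00000167670) counted 587, 933 and 1038 and 203, 189 and 705 in p53 wild-type lines, with H-Ras C between vector A and B, and 870.4, 767 and 941 and 150.01, 169 and 156 in p53-deleted lines. The H-Ras fold change was -1.47 ± 0.50 (adjusted p = 0.071) in p53 wild-type and -2.45 ± 0.10 (adjusted p = 1.0e-08) in p53-deleted cells. CHAF1B (ENSG00000159259) counted 303, 447 and 527 and 86.2, 104 and 410.3, and 447, 383 and 379.5 and 106, 90.7 and 98.98, in the same order of groups. Its p53 wild-type groups overlapped (-1.43 ± 0.56, adjusted p = 0.11) and its p53-deleted groups did not (-2.04 ± 0.12, adjusted p = 1.0e-07).

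**Figure D4:**
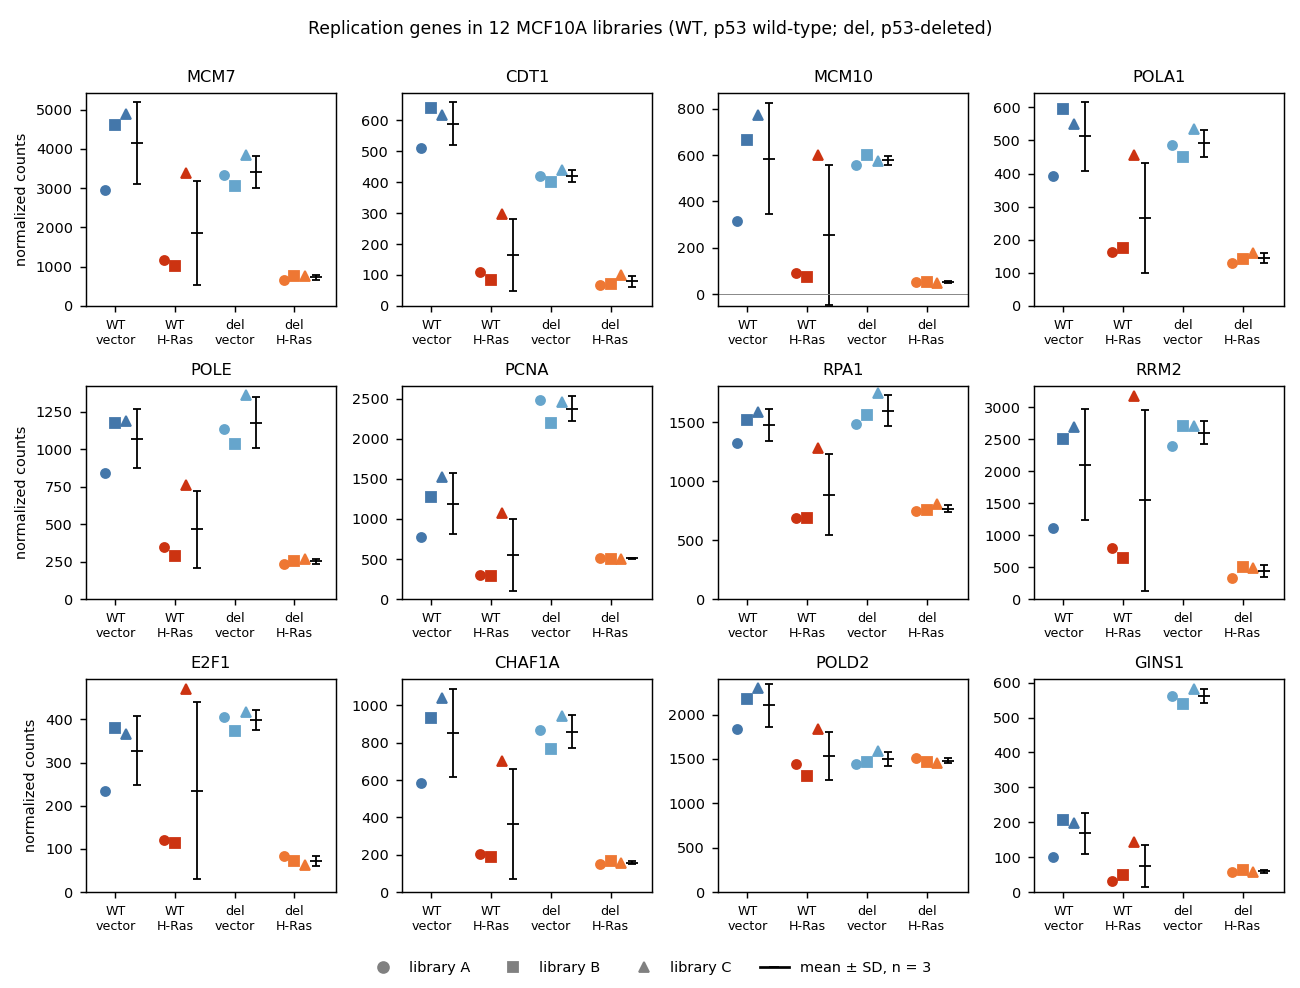
Normalized counts (vertical axis, linear, each panel with its own scale) of 12 of the genes in libraries A (circle), B (square) and C (triangle) of each group, with mean ± SD over n = 3. H-Ras C, the red triangle, stands above H-Ras A and B in each panel, POLD2 is at like levels in both p53-deleted groups, and GINS1 and PCNA are highest in the p53-deleted vector libraries.

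Genes with an E2F word in the promoter window had log2 fold changes of -3.41 to -1.77 in p53-deleted cells, with a median of -2.36 (20 genes). Those without one ran from -3.46 to -0.04 with a median of -2.01 (22 genes), so the ranges overlap widely and include MCM10, which fell most and has no such word in its window. The windows shown above belong to genes of both ends, from GINS2 at -3.18 to POLA1 at -1.77. Without vector A and H-Ras C, the p53 wild-type medians were -2.19 and -1.72.

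The interaction asked whether the H-Ras response differed between backgrounds. Its log2 value is the response in p53-deleted cells minus that in p53 wild-type cells over the 12 libraries. It was called for 2 of 47 genes, both lower, where 7.81% of 13223 genes tested were called lower, so the count is near or under the background. The median was -1.11 and 46 of 47 values were below 0. GINS3 differed by -1.65 ± 0.36 (adjusted p = 0.0092, 95% interval -2.44 to -0.86), and all 20 of its alternatives were called. POLA2 differed by -1.48 ± 0.42 (adjusted p = 0.032), and 12 of 20 alternatives were called, with adjusted p of 0.0044 to 0.072. Intervals of the rest were wide, as for MCM3, -0.84 ± 0.53 with an interval of -1.99 to 0.31, so a missed threshold does not show that the responses were alike. Leaving out 1 library moved the count to between 1 and 11, the highest without H-Ras B. It was 6 without H-Ras A or H-Ras C, and 1 without vector B of the p53 wild-type line or without any 1 of the p53-deleted libraries. Without both vector A and H-Ras C, 9 genes were called lower (11.8% of 13047 genes) and 1 higher (10.7%), with a median of -0.31 in place of -1.11. That fit keeps 2 libraries in each p53 wild-type group. Leaving out both had to raise each interaction value, because it lowers each p53 wild-type fold change. The 9 were GINS3 (-1.10), GINS1 (-0.88), RFC3 (-0.86), POLA2 (-0.82), E2F1 (-0.78), RRM2 (-0.75), CDC6 (-0.62), RRM1 (-0.53) and MCM4 (-0.49), and the 1 was POLD2 (0.67).

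The vector lines were compared to ask how p53-deleted and p53 wild-type cells differed without H-Ras. Few replication genes were called, and the median log2 difference was 0.05 (p53-deleted minus p53 wild-type). Of 47 genes, 2 were higher, GINS1 and CCNE1, where 16.2% of 13223 genes were called higher, and 1 was lower, POLD2, where 16.8% were called lower. GINS1 averaged 169 ± 58.3 and 561 ± 20.3 normalized counts, a difference of 1.80 ± 0.42 (adjusted p = 0.00504), and every p53-deleted library was above every p53 wild-type library. CCNE1 averaged 128 ± 22.5 and 243 ± 16.1 (0.93 ± 0.24, adjusted p = 0.0088), also without overlap. Both were called in all 20 alternatives. POLD2 averaged 2103 ± 241 and 1499 ± 79.05 (-0.48 ± 0.12, adjusted p = 0.0082), and was not called with factors set within each table (-0.32, adjusted p = 0.059, the highest over its alternatives, with 5.7e-05 the lowest). PCNA averaged 1189 ± 379.7 and 2378 ± 159.6, without overlap, and did not pass the test (1.05 ± 0.40, adjusted p = 0.058, 95% interval 0.20 to 1.91). Without vector A and H-Ras C, 8 genes were called higher (20.6% of 13047 genes) and 12 lower (20.4%). Vector A was the lowest p53 wild-type vector library in each gene, so leaving it out had to lower each difference. The 8 included PCNA, LIG1, RFC3 and CCNE2, and the 12 included MCM2, MCM3, MCM5, MCM6 and MCM7. Leaving out H-Ras C alone gave 11 calls, and leaving out H-Ras B 5. The factors within each table move the median of all genes by 0.16 and gave 5 higher and 0 lower. Intervals of the genes not called were wide, as for MCM10, 0.08 ± 0.60 with -1.22 to 1.38. The spread per gene was estimated over all groups, so the uneven p53 wild-type H-Ras libraries enter these intervals and calls. They do not measure the spread of the vector libraries alone. Without vector A and H-Ras C, MCM10 differed by -0.32 ± 0.13 and PCNA by 0.77 ± 0.09.

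The H-Ras lines were compared in the same way. Here 22 of 47 genes were lower in p53-deleted cells and 0 higher, where 18.2% of all genes tested were called lower, with a median log2 difference of -0.93. The test used 1 estimate of the spread per gene over all 4 groups. The p53 wild-type H-Ras libraries spread far more than the p53-deleted ones, so the adjusted p-values do not measure their spread alone. Every p53-deleted library was below every p53 wild-type library in 33 genes, as for 26.6% of all genes. GINS2 had the lowest value, averaging 199.7 ± 185 and 48.1 ± 11.9 (-1.67 ± 0.48, adjusted p = 0.016). POLA2 averaged 350.1 ± 199 and 103 ± 8.91 (-1.61 ± 0.30, adjusted p = 0.00103). CDC6 averaged 475 ± 441 and 119.9 ± 23.8 (-1.61 ± 0.45, adjusted p = 0.014). MCM10 came next in size and did not pass, at -1.58 ± 0.60 (adjusted p = 0.054), and PRIM1 and FEN1 were the following genes called, at -1.52 ± 0.35 (adjusted p = 0.0047) and -1.50 ± 0.41 (adjusted p = 0.012). The calls of GINS2 and CDC6 were lost without p53-deleted H-Ras A, at adjusted p of 0.067 and 0.056, where the full ranges over the alternatives were 0.0012 to 0.067 and 0.00014 to 0.056, and POLA2, PRIM1 and FEN1 were called in all 20 alternatives. Leaving out p53-deleted H-Ras A gave 10 genes lower, and leaving out H-Ras C of that line gave 14. The p53-deleted H-Ras libraries were below H-Ras C in 47 genes. Against H-Ras A and B they were below both in 33 genes, above both in 7 (GINS1, POLD1, POLD2, PCNA, LIG1, RPA1 and CCNE1) and overlapping in 7. The share of all genes was not taken for the counts against H-Ras C alone or against A and B. These counts therefore only describe the 47 genes. Without vector A and H-Ras C, 24 genes were called lower (22.5% of 13047 genes) and 5 higher (21.0%), and the median was -0.35. H-Ras C was the highest p53 wild-type H-Ras library in each gene, so leaving it out had to raise each difference. The 5 were PCNA (0.78), GINS1 (0.58), CCNE1 (0.57), LIG1 (0.49) and POLD1 (0.26), and the lower ones included POLA2 (-1.19), PRIM1 (-0.99) and GINS2 (-0.97).

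**Figure D5:**
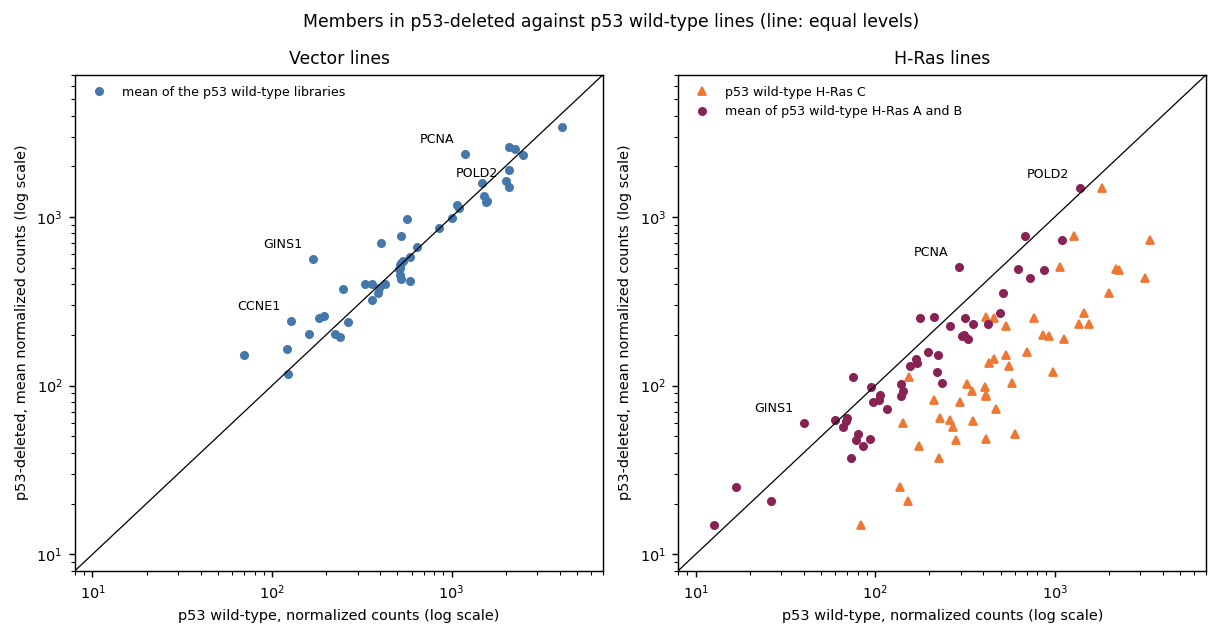
Mean normalized counts of the 47 genes in p53-deleted lines (vertical axis, log scale) against p53 wild-type lines (horizontal axis, log scale), for the vector lines (left) and for the H-Ras lines (right), where H-Ras C (triangles) and the mean of H-Ras A and B (circles) are drawn apart. All 47 triangles lie below the line of equal levels, while circles scatter about it with most of them below, and GINS1, PCNA and CCNE1 are above the line among the vector lines.

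Most further genes of the pathway fell with the 47 in p53-deleted cells, on lists that were drawn up with earlier results of these data known. Of 30 other replisome and origin genes, 26 fell and 1 rose in p53-deleted cells, and 2 fell and 0 rose in p53 wild-type cells, with medians of -1.17 and -0.48. Of all genes tested, 28.3% were called lower in p53-deleted cells and 12.7% in p53 wild-type cells. The count of 2 was therefore not above the background. CLSPN, the checkpoint mediator claspin, counted 469, 571 and 382 and 43.2, 57.9 and 47.04 in p53-deleted vector and H-Ras libraries (-3.25 ± 0.17, adjusted p = 4.2e-08). TICRR, an origin-firing factor, fell from 422, 428 and 504 to 52.9, 65.6 and 62.7 (-2.90 ± 0.13, adjusted p = 1.6e-08), and in p53 wild-type cells from 216, 332 and 362 to 83.1, 105 and 216 (-1.27 ± 0.37, adjusted p = 0.043, 3.0e-08 to 0.15 over the alternatives, 10 of 14 of them called). CHTF18, part of an alternative clamp loader, was the other gene called in p53 wild-type cells (-1.40 ± 0.35, adjusted p = 0.024, 7.0e-08 to 0.102 over the alternatives). The gene that rose was POLD4, the smallest subunit of polymerase delta (1.43 ± 0.15, adjusted p = 1.0e-05), named after its value was seen.

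Of 14 other nucleotide supply genes, 12 fell and 1 rose in p53-deleted cells, and 3 fell and 1 rose in p53 wild-type cells. The shares of all genes tested that were called lower were 28.3% and 12.7%. RRM2B, the p53-inducible subunit of ribonucleotide reductase, was the one that rose in both backgrounds. It counted 1015, 1021 and 920.005 and 1888, 2129 and 1592 in p53 wild-type lines (0.90 ± 0.12, adjusted p = 0.0019), and 363, 406 and 347 and 961, 930.2 and 922 in p53-deleted lines (1.32 ± 0.09, adjusted p = 3.0e-07), without overlap in either. Its level in p53-deleted vector cells was lower than in p53 wild-type vector cells (-1.40 ± 0.11, adjusted p = 1.2e-06). In p53-deleted cells RRM2 fell while RRM2B, which can take its place in the enzyme, rose. DCK, deoxycytidine kinase, fell by 1.42 on the log2 scale in p53-deleted cells. ADA, adenosine deaminase, was called lower in p53 wild-type cells (-0.78 ± 0.15, adjusted p = 0.0074).

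Of 20 other S-phase and E2F-linked genes, 19 fell and 0 rose in p53-deleted cells, with a median of -1.71, and 0 were called in p53 wild-type cells with all 6 libraries, against 19 without vector A and H-Ras C. Of all genes tested, 28.3%, 12.7% and 29.4% were called lower in these fits, in the same order. DTL, which directs the destruction of CDT1, fell from 984, 921 and 1031 to 139, 117 and 91.1 in p53-deleted cells (-3.10 ± 0.14, adjusted p = 1.6e-08). E2F8, a repressor E2F that is itself an E2F target, fell from 72.6, 78.9 and 73.9 to 8.82, 8.68 and 11.8 (-2.86 ± 0.21, adjusted p = 7.6e-07). Among 9 E2F repressors, pocket proteins and subunits of the MuvB complex, 4 fell and 1 rose in p53-deleted cells, with a median of -0.17. With 28.3% of all genes called lower there, the count of 4 in so short a list is not read as a result. LIN9 and LIN54, MuvB subunits, had the largest changes, -1.62 ± 0.18 (adjusted p = 2.1e-05) and -1.34 ± 0.13 (adjusted p = 8.0e-06). RB1, the retinoblastoma gene, was also called lower in p53-deleted cells (-0.65 ± 0.10, adjusted p = 0.00016) and E2F5 was the one called higher (0.63 ± 0.21, adjusted p = 0.023), both named after their values were seen. All 10 proliferation markers of later phases fell in p53-deleted cells, with a median of -2.02, where 28.3% of all genes tested were called lower. Of these 10 markers, 0 were called in p53 wild-type cells (12.7% of all genes called lower), against 10 without vector A and H-Ras C (29.4%). Their sum was 3516, 6611 and 6854 in p53-deleted H-Ras A, B and C, so H-Ras A was the low library of that group on this list, with a median log2 deviation of -0.95. On the replication genes themselves, the median log2 deviation of p53-deleted H-Ras A was only -0.15. Its removal took the H-Ras lines' count from 22 to 10 genes, and removal of H-Ras C of that line lowered the count too. Whether the low later-phase markers bear on that count was not tested. AURKB, a mitotic kinase, fell from 501, 611 and 555 to 58.2, 91.7 and 97.02 (-2.79 ± 0.18, adjusted p = 2.1e-07), and CDK1, the kinase of mitotic entry, from 1289, 1545 and 1261 to 207, 268 and 271 (-2.47 ± 0.12, adjusted p = 3.1e-08). CDKN1A rose with H-Ras in both backgrounds, from 2109, 2329 and 2438 to 4427, 4234 and 3542 in p53 wild-type lines (0.81 ± 0.12, adjusted p = 0.0022) and from 729.7, 836 and 869 to 2587, 2095 and 2082 in p53-deleted lines (1.45 ± 0.11, adjusted p = 5.9e-07). H-Ras C was the lowest H-Ras library for CDKN1A, though above all vector libraries. The part of this inhibitor in the fall of the replication genes was not tested.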

How the data were processed

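For the 12 MCF10A libraries, RNA came from TRIzol extraction and oligo-dT beads and the library kit was TruSeq, per the labels' protocols. Per the submitters' processing notes, the tools included HTSeq, TopHat, Trimmomatic, FastQC and SAMtools, and the build was GRCh37. The sources used here do not give tool versions, the strand setting or the authors' test.

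The authors deposited a table for each p53 background, 2 in all. Group means make up its measured columns, per the file headers, and the values show this deposited signal to be averaged read counts divided by size factors. A deposited fold change, its log2 and deposited p-values, raw and adjusted, stand beside them. In the p53 wild-type table the column headers carry a number that differs from the one in the table's name, and the columns were assigned by the table and sample descriptions. No column of single libraries was left unused, as the tables hold 0.

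Reads of the 3 libraries in each group were solved from the 15 digits of the means, since the lowest means show what 1 read of each library is worth. Splits were searched in full up to a mean of 10000, within 0.2 to 2.5 times the mean up to 20000 and within 0.5 to 1.6 times up to 60000. A unique solution was found for 99.891% to 99.995% of genes above 0, and for all 47 genes described. Of 2000 simulated means in each group, 100% were solved rightly, and of 2000 means shifted off their values 0 or 1 were solved. All SDs (n = 3) come from solved values, not from deposited ones. Counting error sets the precision at low values, and intervals cover that and the spread between libraries only.

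The design named a count test if raw counts were at hand. Because the files hold means, limma 3.58.1 (R 4.3.3) was run on log2(value + 1), pseudocount 1, with a mean-variance trend, and was tested on simulated data. A gene was tested if 3 or more libraries held 10 or more normalized counts, and an adjusted p under 0.05, two-sided, was a call. H-Ras comparisons used the 6 libraries of a table with its size factors. The interaction and both comparisons of p53 backgrounds used all 12 with median-of-ratios factors over them, the scale on which levels are printed. In those fits 1 estimate of the spread per gene was shared by the groups, whose own spreads were unequal. Alternatives were pseudocounts of 0.5 and 5, no filter, a filter at 50, total-read scaling, voom, another set of libraries or factors, and leaving out libraries. Solving and figures used Python 3.11.15, NumPy 2.4.6 and Matplotlib 3.10.9.

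The 47 genes and all lists were chosen with earlier results of these data known, so no list is independent evidence. All 47 genes could be named. Library values are given for the 2 genes of highest mean count in each role and for up to 5 called genes of largest change in each direction of each comparison. Outside the 47, HRAS, CDKN1A and up to 2 called genes of each list in each H-Ras comparison are named, and a few genes that this rule or the lists hold are not reported here.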

Additional observations from a re-analysis of the deposited data

Results flagged for a closer look

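The response to H-Ras differed between the p53 backgrounds for 2 of the 47 genes in the interaction test (limma over 12 libraries), where 7.81% of all 13223 genes tested were called lower, so the count is not above the background. The log2 response in p53-deleted cells minus that in p53 wild-type cells was -1.65 for GINS3 and -1.48 for POLA2. GINS3 was called in all 20 alternatives and POLA2 in 12 of 20. With vector A and H-Ras C left out, which had to raise both values, the differences were -1.10 and -0.82.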

How the results depend on the processing

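No paired analysis was possible because the tables carry no replicate numbers. In the p53-deleted comparison the count of genes called was 46 under every alternative run, and 363 alternative fits of the named genes kept their side of the threshold and their sign. The exception was POLD2, which ran from -0.0612 to 0.00665 with 1 library left out and was above 0 without p53-deleted vector C. The p53 wild-type count of 6 became 10 with voom, 31 in a fit of all 12 libraries, 47 without both libraries apart and 0 to 45 when 1 library was left out. The interaction count of 2 became 10 without both and 1 to 11 with 1 library left out. The vector lines' count of 3 became 6 with voom, 5 with factors set within each table, 20 without both and 3 to 11 with 1 left out. The H-Ras lines' count of 22 ran from 10 to 30 with 1 left out. For fits with 1 library left out the share of all genes called is not given, here or above. A change particular to the 47 genes cannot be read from those counts. Factors set within each table shift the median of all genes by 0.16 in the vector lines and 0.15 in the H-Ras lines. The interaction went from below to above 0 without both libraries for 8 of the 47 genes, CDT1 (0.29), CDC45 (0.0525), PCNA (0.0135), RPA1 (0.11), CDC25A (0.00742), CHAF1B (0.32), ORC1 (0.0476) and POLE2 (0.0169). Of the first 6 it did so without H-Ras C alone for CDT1, RPA1 and CHAF1B, whose values ran from -0.70 to 0.19, from -0.41 to 0.0389 and from -1.02 to 0.097 with 1 library left out. Leaving out both libraries had to lower each p53 wild-type fold change, so it had to raise each interaction value. The changes of sign are therefore not a result about p53 background. With 3 libraries a group, wide intervals in the p53 wild-type lines limit what can be shown. The p53-deleted comparison holds neither of the libraries apart, so it has no value without them.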
